A study of Ovis aries with 8 samples.

Results

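The pulmonary surfactant proteins A, B, C and D are encoded by SFTPA1, SFTPB, SFTPC and SFTPD, and their transcripts were followed here in the lungs of 8 sheep fetuses. The array probes were chosen by name: a non-control probe was taken where its gene name was 1 of these symbols or SFTPA, or where its description contained the word surfactant. That rule found 8 of 15008 probes, which were 2 probes for each of the 4 genes, and it used no measured value. The 4 genes are among 974 that could be named on the array.

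The fetuses were at approximately 130 days of a 147-day gestation and came from 4 sets of twins. In each set 1 twin received 0.2 mg of aldosterone over 48 h, and the other twin received vehicle over the same time and is called the control. Both twins had been operated on, and infusions began 5 days after surgery, so the 2 groups share the surgery, the infusion and the age. Each lung gave 450 ng of total RNA to its own 1-colour Agilent array, giving 4 aldosterone and 4 control lungs. Sex and breed are not given in the sources used here.

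Surfactant is a film of lipid and protein that lowers the surface tension of the alveoli and is made by type II epithelial cells in the weeks before birth. SP-B and SP-C are small hydrophobic proteins that spread and stabilise the lipid film, whereas SP-A and SP-D are large water-soluble collectins, lectins with a collagen-like stalk, that bind microbes. SP-A, SP-B and SP-D are also made by secretory cells of the airways, whereas SFTPC is the most specific of the 4 for type II cells. Glucocorticoids are the best known hormonal inducers of surfactant in the fetal lung, and aldosterone acts on the related mineralocorticoid receptor.

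The probes are 60 bases long, and where they lie sets how far the 2 readings of a gene are separate. The SFTPD probes start at bases 170 and 190 of their transcript record and overlap. Their sequences are given 5′ to 3′, with the 40 bases they share in capitals, because 2 readings of nearly the same stretch are not independent measurements of the gene.
SFTPD probe from base 170: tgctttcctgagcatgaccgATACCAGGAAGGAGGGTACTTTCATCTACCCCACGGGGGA
SFTPD probe from base 190: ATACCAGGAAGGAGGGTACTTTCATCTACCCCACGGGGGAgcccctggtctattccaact
The probes of the other genes do not overlap each other. They start at bases 1725 and 1794 for SFTPA1, at 1391 and 1588 for SFTPB and at 645 and 739 for SFTPC. The probe nearest the 3′ end of each of these records runs into a stretch of A, and the last 30 bases of each are shown 5′ to 3′, with the 6 terminal A bases in capitals, since these probes read the very end of the transcript.
SFTPA1 probe from base 1794: agtgtaataaatcatgactgtgttAAAAAA
SFTPB probe from base 1588: ccccaacatgaaggtcatgtattcAAAAAA
SFTPC probe from base 739: caaagattaaagcatcctgattgcAAAAAA
No other probe of the array shared a run of 16 bases, on either strand, with any of the 8 probes. In the gene order of the RefSeq sheep assembly ARS-UI_Ramb_v3.0, used here for names alone, SFTPA1 lies 2 places from MBLA, which encodes mannose-binding lectin, another collectin. SFTPB lies 3 places from GNLY, which encodes granulysin, a protein of the same saposin-like family as SP-B. SFTPC lies between BMP1 and LGI3. SFTPD was named from the description in the files.

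All 8 probes were well above background on all 8 arrays, and none was saturated or flagged as an outlier. Levels are given as log2 of the background-subtracted signal less the 75th percentile of the same array, so that a value of 3 lies 3 doublings above that percentile; levels of different probes are not on 1 scale and are not compared. The 75th percentile was between 10.23 and 10.73 on the log2 scale, and 76.49% to 85.41% of spots were well above background. With 8 arrays, precision is set by how few lungs there are. The p-values of the group comparison measure the spread between lungs of 1 group, which come from different twin sets, and leave the twin pairing out. A fit with the replicate number as a block is given below. In whole lung tissue, fewer cells of a type and less RNA per cell cannot be told apart. Type I cell genes AQP5, which encodes a water channel, and CAV1, which encodes caveolin, were above background on every array beside the surfactant genes. Of the type II cell markers other than the surfactant proteins themselves, 1 of 12 was measured, LPL, which encodes lipoprotein lipase and does not define the cell. A change in the number of type II cells was therefore not tested.

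None of the 4 genes differed detectably between aldosterone and control lungs. SFTPA1 had the lowest mean log2 difference of the 4, at -0.25, and SFTPB, SFTPC and SFTPD had mean differences of -0.10, 0.03 and 0.05 at their brighter probes. With limma and Benjamini-Hochberg adjustment over 12170 probes, 0 of 8 surfactant probes passed an adjusted p of 0.05, against 0% of all tested probes. At an unadjusted p of 0.05, 0 of 8 passed, against 1.87% of all probes, which were 228 probes. The 8 probes had a median difference of 0.02, with 5 higher and 3 lower means after aldosterone, and the groups overlapped at all 8. Over all tested probes the median was 0.01, with 6270 higher and 5900 lower.

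SFTPA1, which encodes SP-A, the most abundant protein of surfactant, read 6.64, 6.48, 6.99 and 7.24 in control lungs 1 to 4 at the probe from base 1794. In aldosterone lungs 1 to 4 the same probe read 6.24, 6.73, 6.37 and 7.01. The lowest lungs were aldosterone lungs 1 and 3 and the highest was control lung 4, and the groups overlapped. The difference was -0.25 with a standard error of 0.23 (limma, n = 4 per group), and its 95% interval ran from -0.77 to 0.27, which is 0.588-fold to 1.21-fold. Its adjusted p was 1.0 in this fit. The probe from base 1725 read 6.45, 6.22, 6.67 and 7.10 in control lungs and 6.04, 6.65, 6.13 and 6.55 in aldosterone lungs. Its difference of -0.27, with a standard error of 0.23 (limma, n = 4 per group), was close to that of the first probe.

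SFTPB encodes SP-B, without which newborn lungs cannot keep their alveoli open. Its probe from base 1588 read 5.77, 5.67, 6.21 and 6.23 in control lungs 1 to 4 and 5.34, 6.35, 5.62 and 6.15 in aldosterone lungs 1 to 4. Aldosterone lungs 2 and 1 were the highest and the lowest of all 8, so the control range lay inside the aldosterone range. The difference was -0.10 with a standard error of 0.25 (limma; 95% interval -0.67 to 0.46; adjusted p = 1.0). The probe from base 1391 read 3.23, 3.17, 3.55 and 3.66 in control lungs and 2.83, 3.93, 3.37 and 3.68 in aldosterone lungs. Here the mean difference had the opposite sign, 0.05 with a standard error of 0.24 (limma, n = 4 per group), and both intervals included 0. This sign turned without any 1 of aldosterone lungs 2 and 4 or control lungs 1 and 2. Without aldosterone lung 2 the difference at base 1391 was -0.109. SFTPB was the only 1 of the 4 genes whose probes differed in sign.

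SFTPC encodes SP-C, a palmitoylated peptide embedded in the surfactant film. Its probe from base 645 read 8.20, 8.35, 8.55 and 8.61 in control lungs 1 to 4 and 7.97, 8.57, 8.67 and 8.60 in aldosterone lungs 1 to 4. Aldosterone lung 1 stood below the other 7 lungs, and the groups overlapped. The difference was 0.03 with a standard error of 0.19 (limma; 95% interval -0.40 to 0.46; adjusted p = 1.0). The probe from base 739 read 7.79, 7.85, 8.03 and 8.23 in control lungs and 7.72, 8.05, 8.15 and 8.02 in aldosterone lungs. It gave the narrowest interval of the 8 probes, -0.34 to 0.36 around a difference of 0.01 (limma, n = 4 per group), which is 0.788-fold to 1.28-fold. The sign of the SFTPC difference turned with median centring, with normexp and the 75th percentile, with quantile normalization of the processed signal, in the authors' values and without scaling between arrays, and none of these values passed the test.

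SFTPD encodes SP-D, which is secreted mostly free of the lipid film. Its probe from base 170 read 2.87, 2.86, 2.98 and 3.77 in control lungs 1 to 4 and 2.63, 3.28, 3.08 and 3.70 in aldosterone lungs 1 to 4. Both lungs numbered 4 were higher than the other 6. The difference was 0.05 with a standard error of 0.28 (limma; 95% interval -0.58 to 0.68; adjusted p = 1.0). The overlapping probe from base 190 read 2.78, 2.63, 2.94 and 3.66 in control lungs and 2.46, 3.16, 3.05 and 3.50 in aldosterone lungs, with a difference of 0.04 and a standard error of 0.28 (limma, n = 4 per group). The SFTPD interval was the widest of the 4 genes and reached 0.669-fold and 1.60-fold. Both SFTPD signs turned with normexp and the 75th percentile and in the authors' values, and that of the probe from base 190 also with median centring, with no value past the test.

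**Figure D1:**
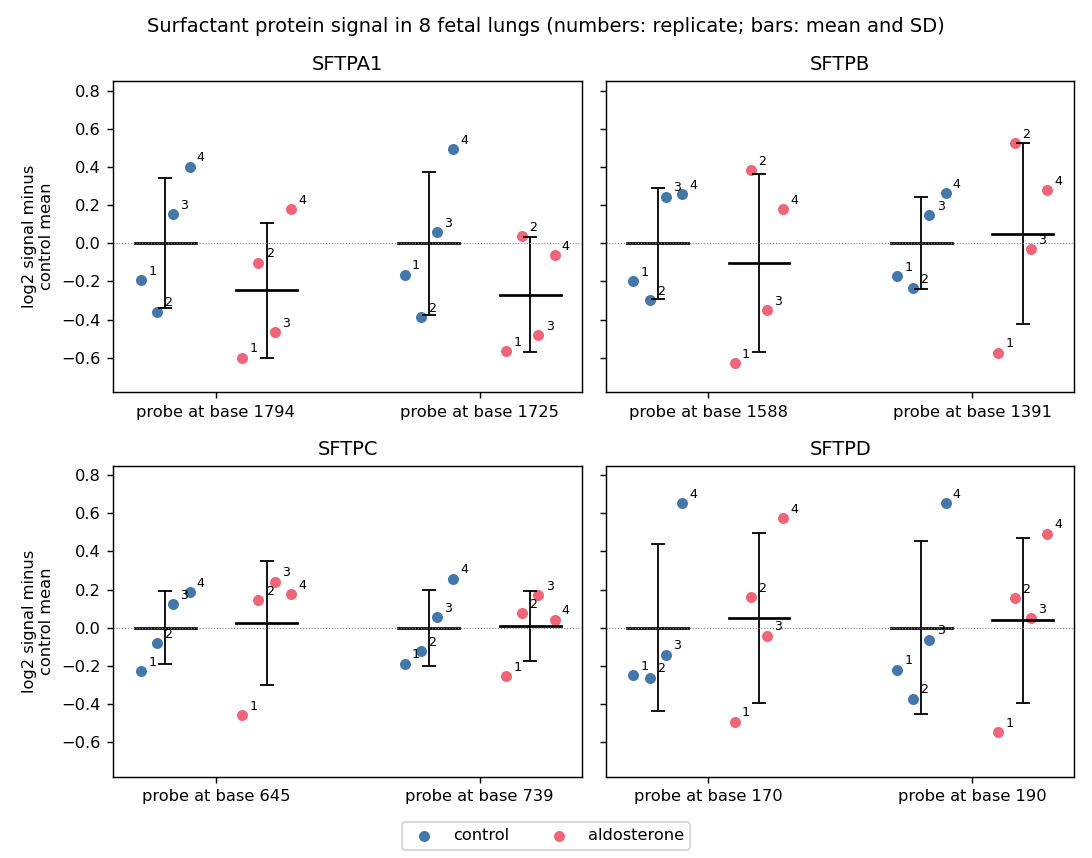
Signal of the 8 surfactant probes in each lung, as log2 signal less the mean of the 4 control lungs for the same probe (vertical axis); points are lungs with their replicate number, the horizontal bar is the group mean and the error bar the SD. Signals are scaled to the 75th percentile of each array. On this scale aldosterone lung 1 is the lowest of the 8 lungs at every probe, and the groups overlap at all 8 probes.

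**Figure D2:**
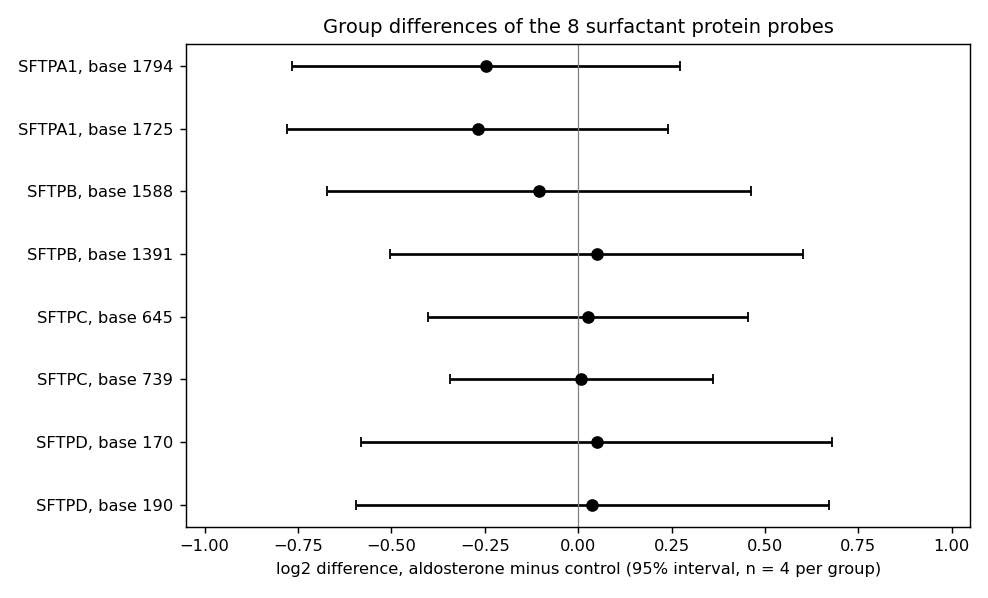
Mean log2 difference between aldosterone and control lungs for each of the 8 probes (point), with the 95% interval of the limma fit (line, n = 4 per group). Each interval includes 0, from the widest at SFTPD (-0.60 to 0.67 at base 190) to the narrowest at SFTPC (-0.34 to 0.36 at base 739).

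The differences by replicate number did not run 1 way. In the pair numbered 1 all 8 probes were lower in the aldosterone lung, and in the pair numbered 2 all 8 were higher. In pair 3 the 4 probes of SFTPA1 and SFTPB were lower and the 4 probes of SFTPC and SFTPD higher. In pair 4, 7 probes were lower and 1 higher. SFTPA1 at base 1794 was lower in 3 of 4 pairs, by -0.41, 0.26, -0.62 and -0.22 in pairs 1 to 4. SFTPB at base 1588 gave -0.43, 0.68, -0.59 and -0.08, the widest spread of the 4 genes. SFTPC at base 645 gave -0.23, 0.23, 0.12 and -0.01, and SFTPD at base 170 gave -0.24, 0.42, 0.10 and -0.08, so each of these genes was higher in 2 of 4 pairs. With the replicate number as a block in limma, the standard error of SFTPA1 was 0.17 (adjusted p = 0.878) and that of SFTPD 0.14 (adjusted p = 0.958). With this block 0 of 8 probes passed the adjusted threshold, against 0% of all 12170 probes, and 0 of 8 passed at an unadjusted p of 0.05, against 4.43%.

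**Figure D3:**
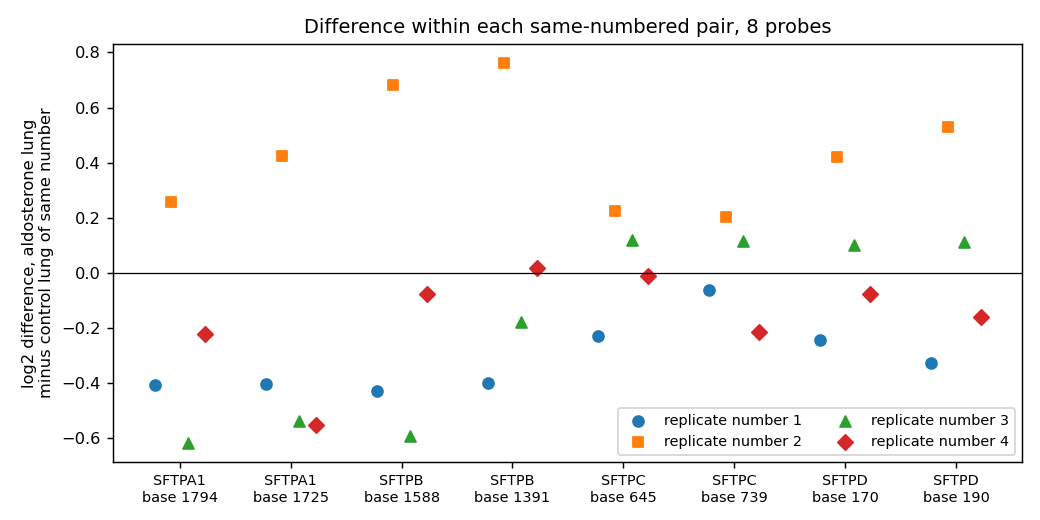
Log2 difference between the aldosterone lung and the control lung of the same replicate number (vertical axis) at each of the 8 probes; symbols are the 4 numbers. Pair 2 lies above 0 at every probe and pair 1 below 0 at every probe.

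On the scaled values the 2 probes of 1 gene followed the same lungs. Across the 8 lungs they correlated at 0.943 for SFTPA1, 0.944 for SFTPB, 0.921 for SFTPC and 0.985 for SFTPD, the gene whose probes overlap. Both probes had the same array percentile subtracted, and their r without scaling is not given here. In unscaled signal the lowest lung was aldosterone lung 1 for SFTPC at base 645 but aldosterone lung 4 at base 739. The SD of the difference between the 2 probes of a lung was 0.12 for SFTPA1 and SFTPB, 0.11 for SFTPC and 0.07 for SFTPD. The SD between lungs of 1 group was larger for SFTPA1, at 0.34 in control and 0.35 in aldosterone lungs (n = 4 each, base 1794). For SFTPD it was 0.44 in both groups (n = 4 each, base 170). The pair differences had the same sign at both probes in 4 of 4 pairs for SFTPA1, SFTPC and SFTPD and in 3 of 4 for SFTPB.

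The highest and lowest lungs differed by 1.42-fold to 2.30-fold, depending on the probe, and SFTPC varied least. Its SD over the 8 lungs was 0.18 at base 739, percentile 17.5 of all tested probes, and 0.25 at base 645, percentile 38.9. Without scaling between arrays the highest and lowest lungs differed by 1.31-fold and 1.25-fold at the SFTPC probes, by 1.79-fold and 1.92-fold for SFTPA1, 1.90-fold and 1.85-fold for SFTPB and 1.68-fold and 1.82-fold for SFTPD. SFTPC varied least on both scales. SFTPD had the highest SD on the scaled values but not the widest range without scaling, with a scaled SD of 0.41 at both probes, at percentiles 74.0 and 74.2. SFTPA1 and SFTPB lay between, at percentiles 63.4 to 66.8. On the scaled values aldosterone lung 1 was the lowest at all 8 probes, and the 75th percentile of its array was the highest of the 8, at 10.73. In unscaled signal it was the lowest at 2 of 8 probes, SFTPB at base 1391 and SFTPC at base 645. On the scaled values control lung 4 was the highest for SFTPA1 and SFTPD, aldosterone lung 2 for SFTPB and aldosterone lung 3 for SFTPC at base 645.

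The 4 genes rose and fell together between lungs to an extent that depended on how the arrays were scaled. On the scaled values, Pearson's r over 8 lungs was 0.865 for SFTPA1 with SFTPB and 0.811 for SFTPA1 with SFTPD. Both had an adjusted p of 0.048 by an exact two-sided permutation test over 6 gene pairs (unadjusted p = 0.00871 for SFTPA1 with SFTPB), with Spearman's rho of 0.833 and 0.81. This test exchanges all 8 lungs freely and does not keep the pairs by replicate number, so its p-values can be too small. SFTPB with SFTPC (0.703), SFTPB with SFTPD (0.729) and SFTPC with SFTPD (0.736) had an adjusted p of 0.0591 by the same exact test, and SFTPA1 with SFTPC (0.595) had 0.118. Spearman's rho for these pairs was 0.357, 0.714, 0.833 and 0.452. Of 12140 other tested probes, 10.3% had an r with SFTPA1 above its lowest r with another surfactant gene. For SFTPB, SFTPC and SFTPD these shares were 3.9%, 17.0% and 11.9%. Without the 2 lungs farthest from the median of the first gene, r was 0.812 for SFTPA1 with SFTPB and 0.553 for SFTPA1 with SFTPD, with an exact permutation p of 0.0833 for the first (n = 6). For the other pairs it was 0.191 to 0.668, and no pair passed. SFTPA1 with SFTPB kept an r near that over all 8 lungs, while those of SFTPA1 with SFTPC and SFTPA1 with SFTPD were lower without these lungs. Leaving out any 1 of aldosterone lungs 1 and 4 or control lungs 1, 2 and 4 ended both calls, and leaving out aldosterone lung 2 ended that of SFTPA1 with SFTPD; r then ran from 0.799 to 0.882 and from 0.697 to 0.823.

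Without scaling between arrays, an alternative added after seeing the data, 0 of 6 pairs passed the exact permutation test, and r was 0.818 for SFTPA1 with SFTPB and 0.649 for SFTPA1 with SFTPD. The 6 values then ran from 0.241 to 0.818. The scaled level of SFTPC went against the 75th percentile of its array, with r of -0.865 over 8 lungs (exact permutation p = 0.00437, adjusted p = 0.0698 over 16 such relations), and that of SFTPD did so with r of -0.80 (adjusted p = 0.0822). Unscaled, these values were -0.249 and -0.509. SFTPA1 and SFTPB had -0.558 and -0.478 scaled and -0.04 and 0.03 unscaled. The part of the array percentile in the co-variation was not tested. With the means of the 2 slide rows removed, 1 of 6 pairs passed, and with the group means removed 5 did. After either removal fewer than 8 values are free, so these p-values can be too small. With the means of the replicate numbers removed, as the pairing of the lungs asks, r was 0.898 for SFTPA1 with SFTPB (exact permutation adjusted p = 0.0164), 0.399 for SFTPA1 with SFTPD (0.397) and 0.948 for SFTPC with SFTPD (0.00119). After this removal the 2 lungs of a pair deviate by equal and opposite amounts, so 4 values are free and these p-values are too small. With quantile normalization of the processed signal r was 0.0597 for SFTPA1 with SFTPC, 0.362 for SFTPB with SFTPC and 0.30 for SFTPC with SFTPD, and no pair passed.

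**Figure D4:**
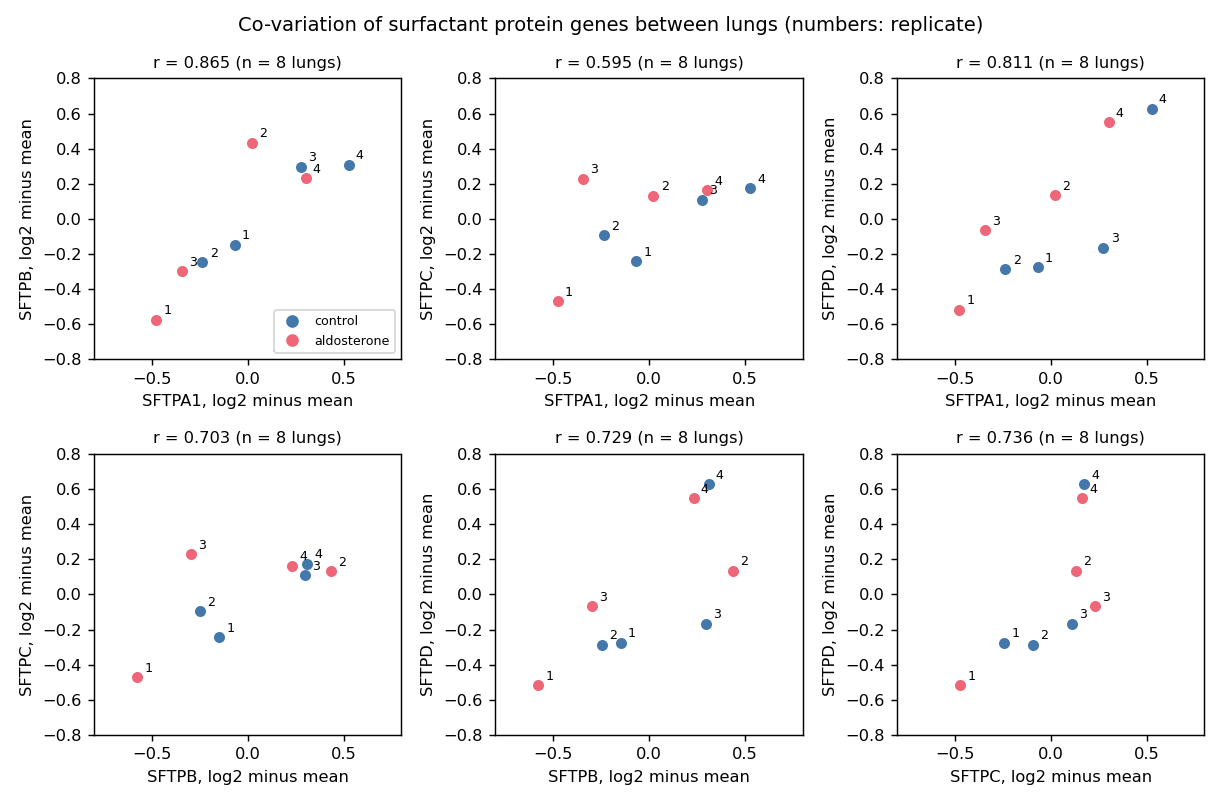
Scaled log2 level of 1 surfactant gene against another, each less its mean over the 8 lungs, at the brighter probe of each gene; points are lungs with their replicate number, coloured by group. Aldosterone lung 1 lies at the low end of all 6 panels, and r runs from 0.595 to 0.865.

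**Figure D5:**
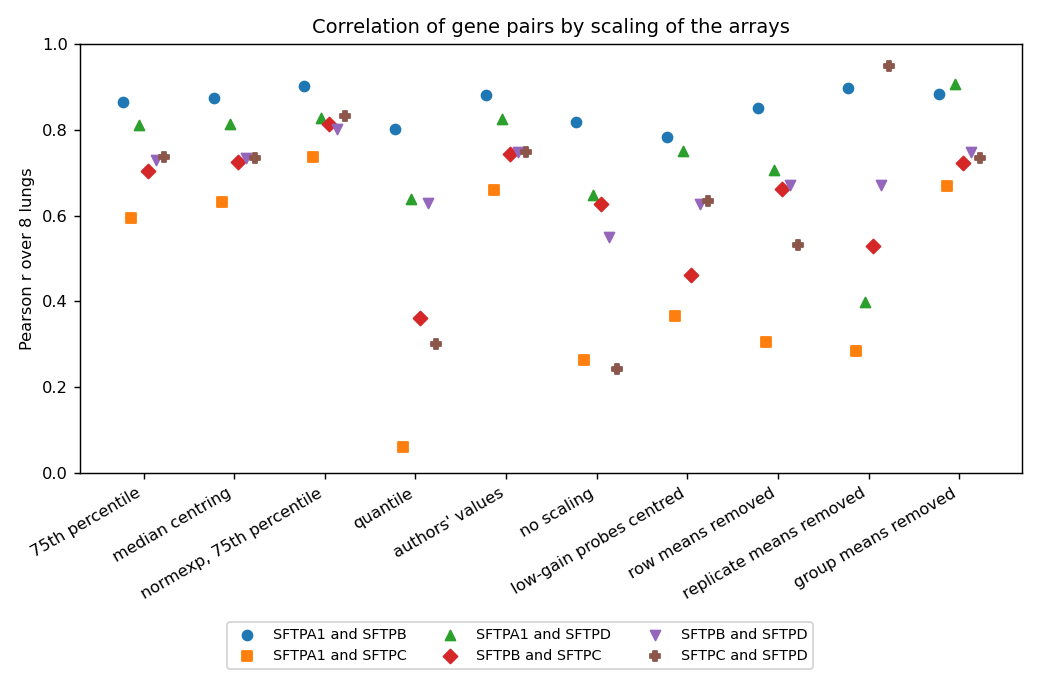
Pearson's r over the 8 lungs (vertical axis) for the 6 gene pairs (symbols) under 10 ways of treating the array values (horizontal axis). SFTPA1 with SFTPB stays between 0.784 and 0.903 in these settings, while SFTPA1 with SFTPC falls from 0.595 with the 75th percentile to 0.0597 with quantile normalization and SFTPC with SFTPD from 0.736 to 0.241 without scaling.

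The balance between genes within a lung, which needs no scaling between arrays, was compared as a log2 ratio of 2 genes at their brighter probes, after the data had been seen. The brighter probes of SFTPA1, SFTPB and SFTPC were read from a second scan at lower gain on all 8 arrays. That of SFTPD was read so on 0, so each ratio to SFTPD also depends on how the scans were matched, which was not tested. The ratio of SFTPA1 to SFTPD was lower after aldosterone in 4 of 4 pairs, by -0.16, -0.16, -0.72 and -0.15. Relative to the control mean, the control lungs 1 to 4 had ratios of 0.06, -0.10, 0.29 and -0.25, and the aldosterone lungs had -0.11, -0.26, -0.43 and -0.40, so the groups overlapped through control lung 4. The mean difference was -0.30 (exact two-sided permutation test, n = 4 per group, p = 0.0571, adjusted p = 0.343 over 6 ratios, where 0.0286 is the smallest p that 4 against 4 allow). The ratio of SFTPA1 to SFTPC differed by -0.27 (exact permutation p = 0.2, adjusted p = 0.6) and the other 4 ratios by -0.15 to -0.02. No ratio passed the test.

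Among 768 other named genes, those most like each surfactant gene over the 8 lungs were ranked by Pearson's r at the brighter probe, which is a description of 8 lungs with no test. The 5 nearest to SFTPA1 were AHSG (fetuin-A, r = 0.938), BARX2 (a homeobox factor, r = 0.93), SCGB3A2 (a secretoglobin of airway secretory cells, r = 0.91), TF (transferrin, r = 0.909) and SRP14 (a part of the signal recognition particle, r = 0.851). Those nearest to SFTPB were AQP4 (a water channel, r = 0.929), RPL14 (a ribosomal protein, r = 0.926), AHSG (r = 0.918), NHERF1 (a scaffold protein of apical membranes, r = 0.904) and ALB (albumin, r = 0.903). AHSG was on both lists. Without scaling, AHSG correlated at 0.887 with SFTPA1 and 0.851 with SFTPB, SCGB3A2 at 0.927 with SFTPA1, and ALB at 0.918 with SFTPB. BARX2 and TF were then at 0.833 and 0.785 with SFTPA1. AQP4, RPL14 and NHERF1 were at 0.79, 0.682 and 0.813 with SFTPB.

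SFTPC was most like ATP1B1 (the sodium pump beta subunit, r = 0.958), RPL4 (a ribosomal protein, r = 0.951), ATP5MC2 (an ATP synthase subunit, r = 0.942), RPS2 (a ribosomal protein, r = 0.936) and KIT (a receptor tyrosine kinase, r = 0.932). SFTPD was most like ALDOA (the glycolytic enzyme aldolase A, r = 0.974), NPC2 (a lysosomal cholesterol-binding protein, r = 0.969), SRP14 (r = 0.958), CKB (creatine kinase B, r = 0.955) and RPSA (a ribosomal protein, r = 0.931). Without scaling SRP14 fell to 0.07 with SFTPD and to 0.464 with SFTPA1, whereas ALDOA and NPC2 were at 0.937 and 0.933 with SFTPD and KIT was at 0.914 with SFTPC. ATP1B1, RPL4, ATP5MC2 and RPS2 fell to 0.821, 0.718, 0.799 and 0.705 with SFTPC. CKB and RPSA fell to 0.843 and 0.865 with SFTPD. Over 12140 other tested probes the median r was between -0.0038 and 0.05 for the 4 genes. Bright spots were read from a second scan at lower gain. On all 8 arrays this held for both probes of SFTPA1 and SFTPC and for SFTPB at base 1588. On 1 array, that of aldosterone lung 2, it held for SFTPB at base 1391, and on 0 for SFTPD. Over the 324 other probes read at low gain on all arrays the median r was 0.281 to 0.432. Of these, 18.8%, 13.3%, 38.3% and 15.1% lay above the lowest r of SFTPA1, SFTPB, SFTPC and SFTPD with another surfactant gene.

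SCGB3A2, on the list of SFTPA1, is given lung by lung. It was on that list for its high r over these same lungs. A match of its lowest lungs with those of SFTPA1 is therefore largely set by the choice. So is a higher r with SFTPA1 than that of other airway genes. SCGB3A2 read 5.38, 4.26, 6.11 and 5.77 in control lungs 1 to 4 and 3.07, 4.89, 3.13 and 5.87 in aldosterone lungs 1 to 4. Aldosterone lungs 1 and 3 were lowest, as they were for both SFTPA1 probes and for SFTPB at base 1588. At base 1391 of SFTPB the lowest were aldosterone lung 1 and control lung 2. The r of SCGB3A2 was 0.91 with SFTPA1 and 0.817 with SFTPB but 0.403 with SFTPC and 0.576 with SFTPD; the difference between these correlations was not tested. The other measured airway secretory genes, PIGR, LTF and ALDH1A1, had lower r, of 0.10, 0.13 and 0.24 with SFTPA1. With SFTPB their r was 0.43, 0.29 and 0.05. The difference of SCGB3A2 between groups was -1.14 with a standard error of 0.66 (limma, n = 4 per group, adjusted p = 1.0). The part of SCGB3A2 in the SFTPA1 and SFTPB values was not tested.

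Control lung 4, the highest lung for SFTPA1 and SFTPD with and without scaling, stood apart in some inflammatory genes, which were picked after their values were seen. TNF, an inflammatory cytokine, read 2.36 there against -3.01 to -1.54 in the other 7 lungs. IL1B, which encodes interleukin-1 beta, read 0.90 against -4.45 to -2.89, and ICAM1, an adhesion molecule, read 3.04 against 0.43 to 0.85. IL1A and TLR2, a receptor for bacterial lipoproteins to which SP-A binds, were also highest in that lung, TLR2 at -1.62 against -4.07 to -2.77. IFNG, which encodes interferon gamma, read -5.01 in control lung 4 against -5.12 in the next lung, and CD14 was highest in aldosterone lung 4. Aldosterone lung 4 was second for SFTPA1 (7.01 at base 1794) and SFTPD (3.70 at base 170). Its TNF was at -1.83, its IL1B at -3.29 and its ICAM1 at 0.69. Without control lung 4, the difference between groups was -0.11 for SFTPA1 and 0.27 for SFTPD, and r of SFTPA1 with SFTPD was 0.697 with an exact permutation adjusted p of 0.114 (n = 7). The part of these genes in the SFTPA1 and SFTPD levels was not tested.

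Cell type markers were followed as the log2 of their summed signal over the measured genes, in which the brightest gene weighs most, and also as the mean of their log2 levels, in which each gene weighs the same. No relation to a surfactant gene passed an exact permutation test over 48 such relations (n = 8; lowest adjusted p = 0.189). The 7 measured endothelial genes summed to 3.28 to 3.60 in control and 3.21 to 3.78 in aldosterone lungs, and this sum had r of 0.171, -0.197, -0.08 and 0.287 with SFTPA1, SFTPB, SFTPC and SFTPD. Their mean log2 level gave -0.777, -0.768, -0.784 and -0.708, so the relation turned on how the genes were weighted. The 4 airway secretory genes summed to 5.72 to 6.68 in control and 5.09 to 6.53 in aldosterone lungs, with r of 0.868 with SFTPA1 and 0.725 with SFTPB for the sum and 0.608 and 0.75 for the mean.

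The 6 macrophage genes summed to 0.80 to 1.40 and 0.70 to 1.82 in control and aldosterone lungs, with r of 0.53, 0.755, 0.72 and 0.806 with SFTPA1, SFTPB, SFTPC and SFTPD for the sum and 0.202 to 0.496 for the mean. The 5 type I cell genes summed to 3.18 to 4.17 and 3.34 to 3.75, the 5 mesenchymal genes to 6.89 to 7.11 and 6.96 to 7.36, and the 3 red cell genes to 3.18 to 5.33 and 2.70 to 4.91. The part of these cell types in the surfactant values was not tested.

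The genes around the surfactant proteins showed no difference past the adjusted threshold either. Of 25 genes of surfactant lipid and protein processing, 5 were measured, 2 with higher and 3 with lower means after aldosterone, 0 past the adjusted threshold and 1 at an unadjusted p of 0.05; their median difference was -0.01. ACACA, the acetyl-CoA carboxylase that starts fatty acid synthesis, differed by -0.77 with a standard error of 0.32 (limma, unadjusted p = 0.041, adjusted p = 1.0). FASN, the fatty acid synthase, differed by 0.20 with a standard error of 0.16, ACLY, which makes acetyl-CoA, by 0.09 with 0.22, and SCD, the stearoyl-CoA desaturase, by -0.01 with 0.32. CSF2, the cytokine GM-CSF that drives surfactant clearance by macrophages, differed by -0.81 with a standard error of 0.80 and was highest in control lung 4. CSF2 and ACACA were well above background on 3 of 4 aldosterone arrays each.

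Of 24 regulators of surfactant genes, 6 were measured, 2 higher and 4 lower, 0 past either threshold, with a median of -0.20. NR3C1, the glucocorticoid receptor, differed by -0.32 with a standard error of 0.29 and NR3C2, the mineralocorticoid receptor to which aldosterone binds, by -0.19 with 0.23. HIF1A and EPAS1, both hypoxia-inducible factors, differed by -0.35 with a standard error of 0.24 and by 0.13 with 0.26. CREB1, a cyclic AMP-responsive factor, differed by -0.21 with 0.27, and CEBPB, a factor of the C/EBP family, by 0.09 with 0.30 (limma, adjusted p = 1.0 for each of the 6). Of 31 hormone and growth signals, 26 were measured, 13 higher and 13 lower, with a median of 0.0035. Of these, 0 passed the adjusted threshold and 1 an unadjusted p of 0.05 (limma), against 1.87% of all probes. That gene was PRL, which encodes prolactin and was named after its value was seen. PRL was well above background on only 2 of 4 control and 3 of 4 aldosterone arrays. EGFR, a receptor for epidermal growth factor, differed by -0.07 with a standard error of 0.21 and ERBB2, a related receptor, by 0.24 with 0.31. FGF10 and FGF7, which drive growth of the lung epithelium, differed by -0.26 with 0.17 and by -0.15 with 0.25.

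Of 20 collectin relatives and binding partners, 4 were measured, 3 higher and 1 lower, 0 past either threshold, with a median of 0.23. CD14, the co-receptor for bacterial lipopolysaccharide, differed by 0.42 with a standard error of 0.23, CD93 by 0.36 with 0.27, TLR4, the lipopolysaccharide receptor, by 0.10 with 0.22 and TLR2 by -0.15 with 0.52 (limma, adjusted p = 1.0 for each of the 4). Among cell type markers 0 passed the adjusted threshold in any list, and 1 did at an unadjusted p of 0.05, the endothelial ligand gene DLL4. The endothelial list had 6 higher and 1 lower mean with a median of 0.18, the macrophage list 5 higher and 1 lower with 0.21, and the mesenchymal list 3 higher and 2 lower with 0.16. The type I list had 2 higher and 3 lower with a median of -0.05, the airway secretory list 1 higher and 3 lower with -0.37, and the red cell list 0 higher and 3 lower with -0.72. These list results are from the fit without a block. With the replicate number as a block in limma, unadjusted p was 0.031 for CD93, 0.038 for CSF2, 0.033 for PRL and 0.018 for DLL4. It was 0.022 for the macrophage gene ITGAM, 0.048 for the red cell gene AHSP and 0.078 for ACACA. In that fit 4.43% of all probes passed an unadjusted p of 0.05 and 0% the adjusted threshold.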

How the data were processed

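Cy3-labelled RNA of 8 fetal lungs was read on 8 arrays of 1 slide, in 2 rows (replicates 1 and 2 in the first, 3 and 4 in the second). The deposited files hold spot intensity, which per the file headers the authors obtained with Agilent Feature Extraction 10.1.1.1, with background subtraction and a low-gain scan for bright spots. The series table deposited by the authors gives log2 values of 12762 spots, which were found to be the log2 processed signal less a constant per array, with a median of 0 in each column.

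Each of 15208 spots was taken as log2 processed signal minus its array's 75th percentile and averaged to 15008 probes, after leaving out 74 flagged values. Kept were the 12170 probes that 4 or more of the 8 arrays measured well above background. Groups were compared with limma 3.58.1 in R 4.3.3, without a block, two-sided, with Benjamini-Hochberg adjustment at 0.05; the code was tested on simulated data. Correlations and ratios were tested by exact permutation with Python 3.11.15, without keeping the pairs of lungs. Where a gene had more than 1 probe, the brighter was used.

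RefSeq accessions named 713 probes, gene IDs 138, symbols 497, synonyms 20 and older names 42; the file's name was kept for 173, 15 matched several genes and 13410 had no name. The genes and lists were chosen with earlier results of these data known. Named were all surfactant probes, all measured genes of the lipid and regulator lists, 2 to 4 in alphabetical order of other lists, and the 5 genes most like each surfactant gene. Exceptions chosen after seeing values are TNF, IL1A, IL1B, ICAM1, IFNG, CD14, TLR2 and SCGB3A2 by lung, PRL, and ITGAM and AHSP in the fit with the block.

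With the group means removed, same-numbered lungs correlated at 0.446, 0.275, 0.28 and 0.538 over 12148 probes, each above the threshold of 0.1, and differently numbered lungs at -0.449 to 0.203. The numbers were therefore taken to pair the samples; the labels describe twin sets but do not say that the number marks them, and same-numbered arrays lie side by side.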

Additional observations from a re-analysis of the deposited data

Results flagged for a closer look

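In 2 of 16 tests of a lung standing apart within its group (8 probes, 2 groups, 4 lungs each), the farthest lung's gap to its nearest neighbour took more of the group's range than Dixon's 95% limit allows. Chance gives about 1 in 20 such cases. At the SFTPC probe from base 645, aldosterone lung 1 read 7.97 and lay below the other 3 aldosterone lungs, with a gap of 0.861 of the range. At the SFTPD probe from base 170, control lung 4 read 3.77 and lay above the other 3 control lungs, with a gap of 0.867 of the range. The second probe of each gene did not pass the same limit. These tests used the scaled values, and the unscaled signal was not tested in this way. The array of aldosterone lung 1 had the highest 75th percentile of the 8, at 10.73.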

How the results depend on the processing

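No surfactant probe passed the adjusted threshold under any alternative run, and SFTPA1 had a lower mean after aldosterone in all of them. With normexp and quantile normalization the SFTPC probe from base 645 took the same value on every array, so its difference, correlations and ratios could not be computed there. At base 645 the SFTPC difference was -0.0128 with median centring, -0.0819 with normexp and the 75th percentile, -0.0243 with quantile normalization of the processed signal, -0.0326 in the authors' values and -0.000656 without scaling. At base 739 these were -0.0304, -0.0778, -0.0162, -0.0502 and -0.0182. SFTPD gave -0.00363 with normexp and the 75th percentile and -0.0088 in the authors' values at base 170, and -0.0287, -0.0207 and (median centring) -0.000949 at base 190. SFTPB at base 1391 gave -0.0465 with normexp and the 75th percentile and -0.00928 in the authors' values. With the other probes the ratio of SFTPB to SFTPC was 0.0409 and that of SFTPB to SFTPD 0.0114. Normexp with the 75th percentile moved the median difference of all probes to 0.17 from 0.0073, and all 8 surfactant probes lay below it there. The cause of these turns was not tested.

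Leaving out 1 lung or 1 pair moved the difference of SFTPA1 from -0.416 to -0.114, of SFTPB from -0.366 to 0.0706, of SFTPC from -0.05 to 0.188 and of SFTPD from -0.125 to 0.268. At the second probes the ranges were -0.499 to -0.105, -0.188 to 0.257, -0.0552 to 0.0959 and -0.125 to 0.256. SFTPB turned to 0.0706 without aldosterone lung 1, to 0.00375 without pair 1 and to 0.0589 without pair 3. For the ratios the ranges were -0.201 to -0.0299 (SFTPA1 to SFTPB), -0.367 to -0.129 (SFTPA1 to SFTPC), -0.382 to -0.201 (SFTPA1 to SFTPD), -0.254 to 0.0231 (SFTPB to SFTPC), -0.286 to -0.0263 (SFTPB to SFTPD) and -0.179 to 0.101 (SFTPC to SFTPD). The replicate block left all differences as they were, since the pairs are complete, and changed no call. For SFTPA1 this block gave -0.248 with a standard error of 0.167.

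For the correlations, SFTPA1 with SFTPB lost its call at 0.819 with normexp and quantile, 0.802 with quantile alone, 0.818 without scaling and 0.784 centred on low-gain probes. SFTPA1 with SFTPD lost it at 0.631, 0.639, 0.649 and 0.751 in these settings, at 0.706 with slide row means removed and at 0.399 with replicate means removed (a block on the pairing), where SFTPC with SFTPD gained a call at 0.948, from a p that is too small with 4 free values. SFTPB with SFTPC, SFTPB with SFTPD and SFTPC with SFTPD gained calls at 0.724, 0.734 and 0.734 with median centring, at 0.744, 0.748 and 0.748 in the authors' values, at 0.756, 0.81 and 0.842 with the other probes, and at 0.722, 0.749 and 0.735 with group means removed. With normexp and the 75th percentile they gained calls at 0.813, 0.801 and 0.831, and SFTPA1 with SFTPC at 0.736. Leaving out 1 lung or pair gave 0.794 to 0.974 (SFTPA1 with SFTPB), 0.28 to 0.874 (SFTPA1 with SFTPC), 0.504 to 0.964 (SFTPA1 with SFTPD), 0.286 to 0.944 (SFTPB with SFTPC), 0.548 to 0.856 (SFTPB with SFTPD) and 0.547 to 0.909 (SFTPC with SFTPD). Without any 1 of aldosterone lung 1, aldosterone lung 4 or control lungs 1, 2 and 4, 0 of 6 pairs passed. The values without scaling and those centred on low-gain probes, the removal of row and replicate means, and the ratios were added after seeing the data.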
